A study of Drosophila melanogaster with 16 samples.

Results

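HP1c is a member of the heterochromatin protein 1 family that is found mostly in euchromatin, outside the compact chromatin for which the family is named. It works with a pair of zinc-finger proteins, ROW and WOC, which are known to bring it to chromatin. H3K4me3, trimethylation of lysine 4 of histone H3, is laid down on nucleosomes around the start sites of active genes, so that an H3K4me3 peak usually marks an active promoter and its summit a nucleosome beside the start site. The 4252 HP1c peaks of fly heads were divided by whether they overlapped an H3K4me3 peak by 1 bp or more. A single peak that covered 19469 bp of the mitochondrial genome was set aside. Of the remaining 4251 HP1c peaks, 698 overlapped the mark and 3553 did not, and these are called marked and unmarked peaks.

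The peaks came from chromatin immunoprecipitation and sequencing of Drosophila melanogaster heads, with 3 libraries for HP1c and 3 for H3K4me3, beside 3 for ROW, 3 for WOC, 2 for HP1b (another HP1 protein) and 2 for IgG. Every library was from the same control genotype, Actin-gal4/+ (W1118), in which the yeast activator GAL4 is driven broadly by an actin promoter and a W1118 background is shared; no treatment is labelled, and age and sex are not given in the labels. A head mixes neurons, glia and other cells, so that a peak present in few cells and a weak peak present in many cannot be told apart. Each antibody had 1 deposited list with its replicates combined. The spread between replicates and the depth of each library are therefore unknown and no test over samples could be made. The 95% intervals given below cover counting error over the peaks of these lists and nothing else.

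The lists differed in length and width, which bears on every overlap. HP1c peaks had a median width of 373 bp and a smallest width of 235 bp. H3K4me3 peaks numbered 6170, with a median width of 606 bp, and 616 of them lay on contigs of unplaced sequence (U and Uextra), on which the HP1c list had 0 peaks. Where a list has no peak, none was reported, which is not a measurement of no binding.

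Marked HP1c peaks were nearly all sites of ROW and WOC. Over all HP1c peaks 57.5% overlapped ROW, 62.2% overlapped WOC and 44.3% overlapped HP1b, while 16.4% were marked. ROW was present at 635 of the 698 marked peaks, or 91.0% (95% Wilson interval 88.6 to 92.9), and at 50.9% of unmarked peaks (49.3 to 52.6). The difference was 40.1 percentage points (Newcombe interval 37.2 to 42.6). WOC was present at 89.3% of marked peaks (86.7 to 91.3) and at 56.9% of unmarked peaks (55.3 to 58.5), a difference of 32.4 points (29.4 to 35). HP1b differed far less between the groups, at 48.9% of marked peaks (45.2 to 52.6) and 43.4% of unmarked peaks (41.8 to 45.1). The difference was 5.43 points (1.39 to 9.47). With a gap of at most 500 bp counted as marked it was -2.67 points (-5.92 to 0.619), an interval that included no difference.

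Read in the other direction, the partners divided the HP1c list into classes with very unlike shares of the mark. HP1c peaks with both ROW and WOC numbered 2157, of which 28.2% were marked (95% Wilson interval 26.3 to 30.1). Of the 287 with ROW and no WOC, 9.41% were marked (6.55 to 13.3). Of the 487 with WOC and no ROW, 3.08% were (1.88 to 5.02), close to the 3.64% (2.75 to 4.79) of the 1320 HP1c peaks with neither. HP1c with WOC alone thus sat at the mark about as rarely as HP1c with neither protein, their intervals overlapping. The class with both proteins made up 87.1% of marked peaks and 43.6% of unmarked ones. The class with neither made up 6.88% of marked and 35.8% of unmarked peaks.

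The contrast in ROW and WOC was present in peaks of every width. A wide peak meets other peaks more easily, so HP1c peaks were divided into 4 groups of like size by width. In the narrowest group, 235 to 293 bp, ROW was at 79.7% of 148 marked peaks (95% interval 72.5 to 85.4) and at 32.0% of 919 unmarked peaks (29.1 to 35.1). In the widest group, 511 to 3901 bp, it was at 98.6% of 208 marked peaks (95.9 to 99.5) and at 75.6% of 853 unmarked peaks (72.6 to 78.4). The difference in ROW lay between 22.9 and 47.7 points over the 4 width groups, and that in WOC between 16.0 and 45.3 points, all with intervals above 0. For HP1b the difference ran from -4.74 to 6.90 points, and its interval was above 0 in 1 group of 4.

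ROW and WOC were nearly as frequent at unmarked HP1c peaks close to the mark as at marked ones. Unmarked peaks included 528 whose centre lay within 1 kb of an H3K4me3 summit. ROW was present at 86.6% of these (95% interval 83.4 to 89.2) and WOC at 83.7% (80.3 to 86.6). Marked peaks exceeded them by only 4.42 points for ROW (0.877 to 8.13) and 5.54 points for WOC (1.70 to 9.52). The 3025 unmarked peaks farther than 1 kb from any summit had ROW at 44.7% (42.9 to 46.5) and WOC at 52.2% (50.4 to 54.0). HP1b behaved differently, being present at 32.6% of the nearby unmarked peaks (28.7 to 36.7), below both the marked peaks at 48.9% and the distant ones at 45.3% (43.6 to 47.1). Nearby unmarked peaks were also somewhat narrower, with a median of 357.5 bp (340 to 374) against 395.5 bp (380 to 411) for marked and 370 bp (364 to 377) for distant peaks, and the part of width in the HP1b values was not tested.

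**Figure D1:**
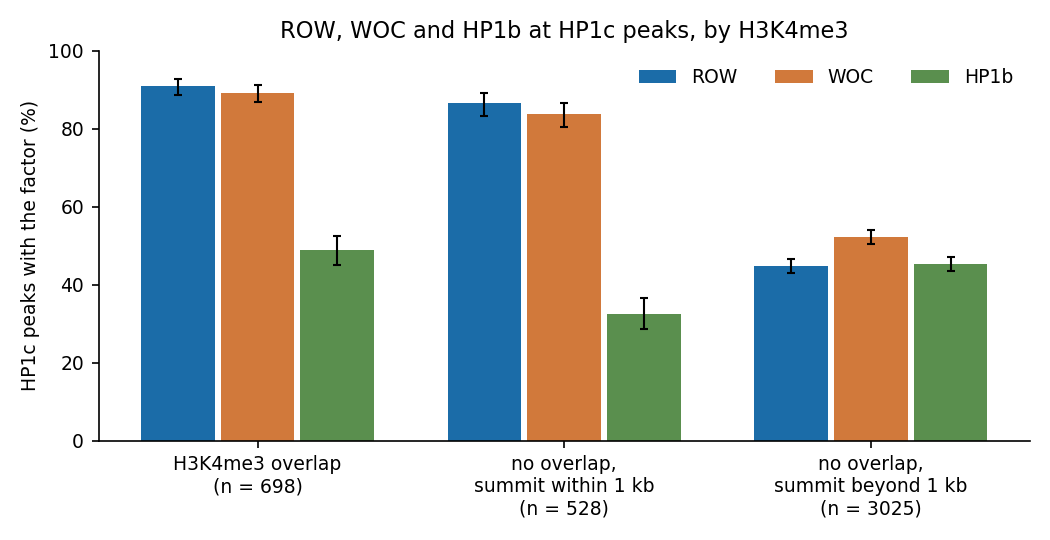
Bars give the percentage of HP1c peaks that overlap ROW, WOC or HP1b, for marked peaks, unmarked peaks with a summit within 1 kb and unmarked peaks beyond it; error bars are 95% Wilson intervals. ROW stands at 91.0%, 86.6% and 44.7% in the 3 groups, and HP1b is lowest, at 32.6%, in the middle group.

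Peaks next to the 1 bp threshold were alike in ROW and WOC. The 132 HP1c peaks that overlapped the mark by 1 to 50 bp carried ROW at 93.2% and WOC at 92.4%. The 152 peaks separated from the mark by a gap of 0 to 50 bp carried them at 91.4% and 88.2%. HP1b differed more, at 42.4% (95% interval 34.3 to 50.95) and 28.9% (22.3 to 36.6) of these peaks, with intervals that met only at their ends. For ROW and WOC too the intervals on the 2 sides of the threshold overlapped. Overlap of separate intervals does not show that the shares are equal, and no interval of these differences was computed.

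The shares of HP1c peaks with ROW and WOC were highest close to the mark and lowest far from it. Among the 408 HP1c peaks with centres 200 to 400 bp from a summit, 93.1% held ROW (95% interval 90.3 to 95.2) and 90.9% held WOC (87.8 to 93.4). From 600 to 1000 bp the shares were 84.3% and 81.5%, and from 1000 to 2000 bp 66.3% and 65.9%. From 20000 to 50000 bp ROW was at 37.8% of 675 peaks (34.2 to 41.5) and WOC at 47.7% (44.0 to 51.5). WOC was more frequent than ROW beyond 2000 bp in each of the 5 bins, with overlapping intervals up to 20000 bp and separate ones beyond. ROW was the more frequent in each of the 4 bins within 1000 bp, with overlapping intervals in each of these 4. Both were scored on the same HP1c peaks, a pairing that these intervals leave out. The 86 HP1c centres under 200 bp from a summit had ROW at 81.4% (71.9 to 88.2) and WOC at 75.6% (65.5 to 83.4), lower than at 200 to 400 bp, and HP1b at 58.1% (47.6 to 68.0). HP1b was at its lowest, 32.6% (28.2 to 37.3), from 200 to 400 bp, where HP1c peaks were also narrowest, with a median of 327 bp.

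**Figure D2:**
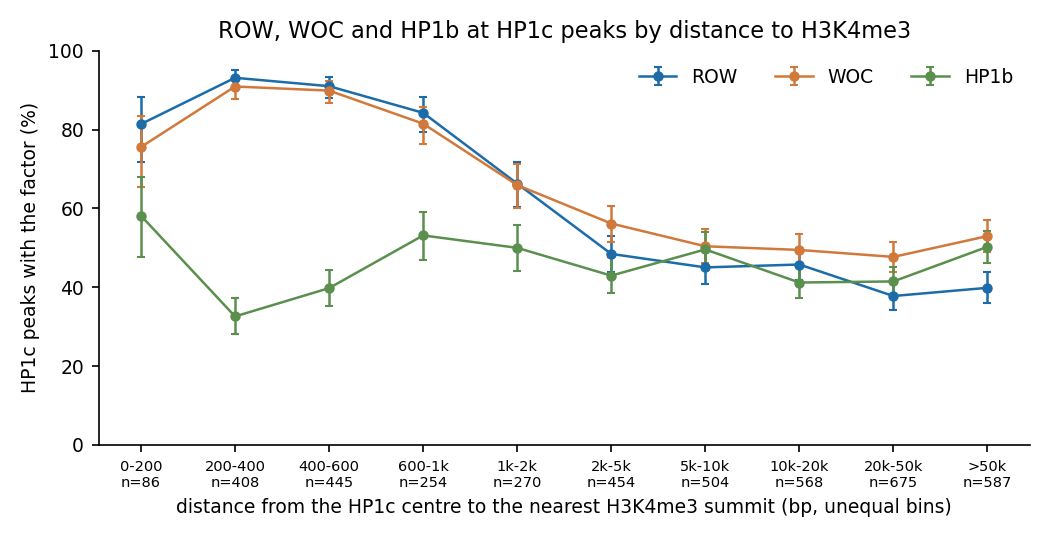
Points give the percentage of HP1c peaks with ROW, WOC or HP1b in bins of distance from the HP1c centre to the nearest H3K4me3 summit (unequal bins, bp), with 95% Wilson intervals. ROW and WOC are highest, at 93.1% and 90.9%, from 200 to 400 bp, where HP1b is lowest at 32.6%.

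Most marked HP1c peaks were centred beside the summit of the mark, and a minority close to it. For marked peaks the median distance from the HP1c centre to the nearest summit was 375 bp (order-statistic 95% interval 364 to 384), with quartiles of 299 and 479 bp. Of these peaks, 73.6% (70.3 to 76.8) had the centre 200 to 600 bp from a summit and 12.3% (10.1 to 15) were under 200 bp. The fullest 100 bp of the distribution was 300 to 400 bp, with 117 peaks whose nearest summit was at lower coordinates and 116 at higher. Unmarked peaks had a median distance of 10715 bp (9924 to 11325). They cannot come close to a summit without meeting its peak, and the nearest was at 294 bp. Even so the nearby unmarked peaks gathered just beyond, with 48.3% of the 528 (44.1 to 52.5) at 400 to 600 bp and 35.8% at 600 to 1000 bp.

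The sides were even. The nearest summit lay at lower coordinates for 50.3% of marked peaks (95% interval 46.6 to 54.0) and for 49.5% of unmarked peaks (47.9 to 51.2). For marked peaks the median distance was 596.5 bp to the next summit on the lower side (538 to 681) and 596.8 bp on the higher side (533 to 715.5). For unmarked peaks these were 22558 bp and 22255 bp. Strand is not part of these files, so the sides are those of the chromosome map and not of transcription.

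**Figure D3:**
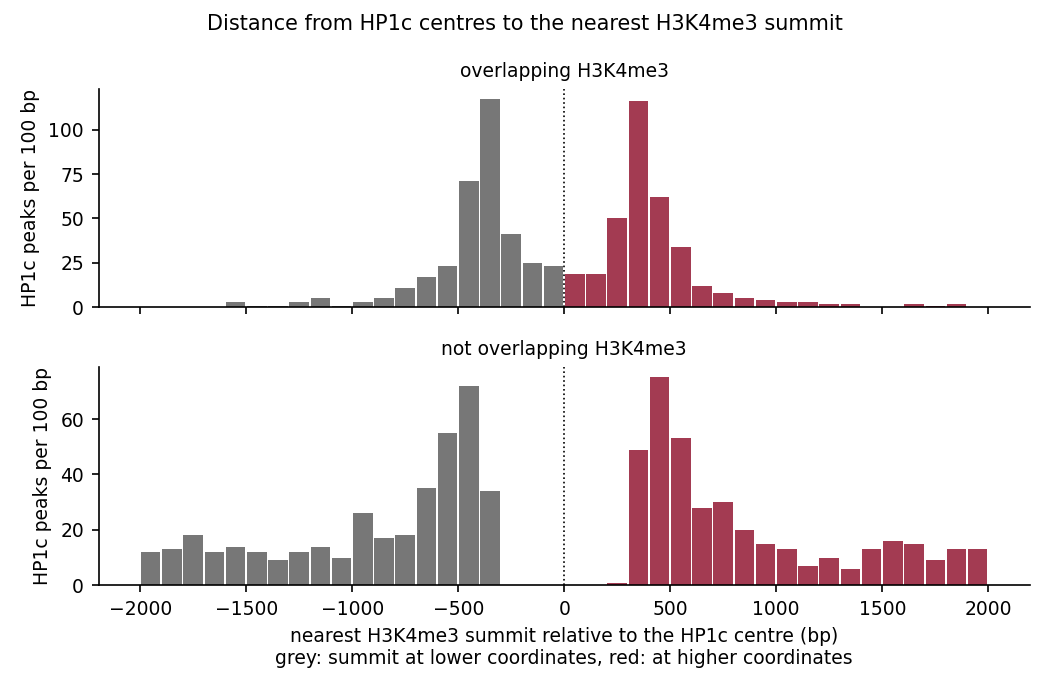
Histograms of the position of the nearest H3K4me3 summit relative to the HP1c centre within 2000 bp (bins of 100 bp, counts of peaks), for HP1c peaks that overlap the mark and those that do not. Marked peaks form a pair of even modes at 300 to 400 bp, of 117 and 116 peaks, and unmarked peaks are fullest at 400 to 500 bp, with 72 and 75.

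A group of HP1c peaks lay between a pair of H3K4me3 summits, an arrangement known from divergent promoters, although the genes there were not analysed here. Summits within 1 kb on both sides were found for 259 HP1c peaks, of which 154 were marked and 105 lay in the gap without touching either peak. ROW and WOC were both present at 251 of the 259, or 96.9% (95% interval 94.0 to 98.4), and HP1b at 35.5% (29.9 to 41.5). From the side of the classes, 11.6% of HP1c peaks with ROW and WOC had such flanks (10.3 to 13.1), against 0.227% of those with neither (0.0773 to 0.666). The summits around the 154 marked peaks were a median of 923.5 bp apart, and those around the 105 unmarked peaks 1023 bp. The HP1c centre stood between 0.25 and 0.75 of the way from one summit to the other for 248 of 259 peaks (95.8%). For most of the 105 unmarked peaks this position was fixed by the grouping. No unmarked centre was nearer than 294 bp to a summit, and the spacing of their summits had quartiles of 855 and 1208 bp. The share was not split by mark, so it does not measure placement apart from the grouping. Where only 1 side had a summit within 1 kb, ROW was at 90.4% of 511 marked peaks (87.5 to 92.7) and 83.5% of 423 unmarked peaks (79.6 to 86.7). It was at 97.4% (93.5 to 99.0) and 99.0% (94.8 to 99.8) of the marked and unmarked peaks with summits on both sides.

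The overlap itself was mostly an edge contact. The 698 marked HP1c peaks made 729 pairs with H3K4me3 peaks, and 31 of them touched 2 H3K4me3 peaks. In 527 pairs (72.3%) the HP1c peak crossed 1 edge of the mark, 258 at the lower and 269 at the higher edge, with a median overlap of 96 bp. In 171 pairs (23.5%) HP1c lay wholly inside the mark and in 31 (4.25%) the mark lay wholly inside HP1c. These shares depend on the widths of the peaks. How often peaks of these widths would cross an edge wherever they fell was not computed. The HP1c centre was inside an H3K4me3 peak for 42.8% of marked peaks (95% interval 39.2 to 46.5), and an H3K4me3 summit was inside the HP1c peak for 17.3% (14.7 to 20.3). In pairs across 1 edge the summit stood nearer to the edge on the HP1c side, a median of 272 bp from it and 438 bp from the far edge, and this held for 411 of 527 pairs (78.0%, 74.3 to 81.3). HP1c peaks inside the mark had ROW and WOC at 82.5% each, against 93.5% and 91.5% for those across an edge. Those inside were also narrower, with a median of 313 bp against 433 bp, and the part of width was not tested. All 31 pairs with the mark inside HP1c had WOC and HP1b, and these HP1c peaks had a median width of 785 bp.

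Marked and unmarked HP1c peaks differed little in width, and the direction depended on what was held alike. The median was 395.5 bp for marked peaks (order-statistic 95% interval 380 to 411; quartiles 304 and 558 bp) and 368 bp for unmarked peaks (363 to 375; quartiles 292 and 500 bp). Within the class with ROW and WOC the order turned, with 411.5 bp at marked peaks (395 to 433) and 445 bp at unmarked ones (432 to 458). Among these, unmarked peaks far from a summit were the widest, at 475 bp (459 to 490), and nearby unmarked ones measured 380.5 bp (359 to 394). HP1c peaks with neither protein were narrow with or without the mark, at 294.5 bp (279 to 319) and 307 bp (301 to 313). The share of peaks that were marked went from 13.9% in the narrowest of the 4 width groups (11.9 to 16.1) to 19.6% in the widest (17.3 to 22.1).

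At marked sites the ROW and WOC peaks were much wider than the HP1c peak they met. For the 635 marked HP1c peaks with ROW the median width was 408 bp for HP1c and 712 bp for ROW, and HP1c was the narrower in 85.4% of pairs (95% interval 82.4 to 87.9). For the 1809 unmarked ones the medians were 428 and 460 bp, with HP1c the narrower in 52.2% (49.9 to 54.5). WOC followed ROW, with 614 bp at marked and 447 bp at unmarked HP1c peaks. HP1b did not, with 391 bp at marked and 406 bp at unmarked peaks. The centres nevertheless stood close together, a median of 55.5 bp apart for ROW and 39.5 bp for WOC at marked peaks. This was not particular to marked peaks or to these proteins. At unmarked peaks the medians were 54 bp for ROW and 49 bp for WOC, and for HP1b they were 40 bp at marked and 56 bp at unmarked peaks. Peak width also depends on depth and antibody, and the part of these was not tested.

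Within the class with ROW and WOC, HP1c peaks without HP1b lay closer to the mark than those with it. HP1c peaks with ROW, WOC and no HP1b numbered 911. Of these, 60.9% had a summit within 1 kb (95% interval 57.7 to 64.0), and their median distance was 572 bp. With HP1b added there were 1246 peaks, of which 37.2% (34.5 to 39.9) had a summit within 1 kb, and the median distance was 3352 bp. The share that overlapped the mark differed less, at 31.1% (28.1 to 34.1) without HP1b and 26.1% (23.7 to 28.6) with it. Among marked peaks, HP1c centres lay 358.5 bp from a summit without HP1b (347 to 367) and 402 bp with it (383 to 426). HP1b also went with width, being at 18.9% of unmarked HP1c peaks in the narrowest width group and 73.4% in the widest. In the class with ROW and WOC, unmarked peaks beyond 1 kb had a median width of 475 bp, against 380.5 bp within it. The part of width and of arm in these distances was not tested.

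ROW and WOC peaks were less often marked where HP1c was present than where it was absent. ROW peaks that overlapped HP1c were marked at 38.4% of 2412 (95% interval 36.4 to 40.3), and ROW peaks without HP1c at 53.3% of 2889 (51.5 to 55.2), a difference of -15 points (-17.6 to -12.3). For WOC the shares were 33.4% and 52.5%, a difference of -19.0 points (-21.8 to -16.3). HP1b peaks went the other way, with 15.6% marked where HP1c was present and 8.40% where it was absent, a difference of 7.17 points (4.26 to 9.75).

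Over all classes the mark was more enriched and wider where it met HP1c, as it was within the class with ROW and WOC, while in the other classes the intervals of the fold overlapped. Over the 5554 H3K4me3 peaks outside U and Uextra, the authors' fold enrichment at the summit had a median of 4.42 at the 692 peaks with HP1c (order-statistic 95% interval 4.28 to 4.64) and 3.62 at the 4862 without it (3.59 to 3.67). The median width of the mark was 838.5 bp with HP1c (790 to 900) and 615 bp without it (607 to 624). Since H3K4me3 peaks with ROW and WOC were more enriched than those with neither, the comparison was repeated within the peaks that overlapped both. There the medians were 4.62 with HP1c (4.41 to 4.80; 605 peaks) and 4.08 without it (4.03 to 4.16; 1621 peaks), and the widths were 854 bp (795 to 931) and 662 bp (646 to 682). Where neither protein was present the fold was lower with HP1c, 2.75 (2.32 to 3.36; 44 peaks) against 3.18 (3.13 to 3.23; 2565 peaks), with intervals that overlapped. With WOC and no ROW it was lower too, 2.48 (1.86 to 5.05; 12 peaks) against 3.80 (3.49 to 3.98; 129 peaks), and with ROW and no WOC it was 4.21 (3.33 to 5.0; 31 peaks) against 3.93 (3.80 to 4.0; 547 peaks), again with overlapping intervals. A wide H3K4me3 peak meets HP1c more easily, and the part of this in the widths was not tested. Arms also differed. The median fold was 3.26 on X, where 2.76% of H3K4me3 peaks carried HP1c, and 4.17 on chromosome 4, where 64.6% did. The part of arm in these values, and in the shares by fold given next, was not tested.

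Over all H3K4me3 peaks outside U and Uextra HP1c was most frequent at the most enriched ones, as it was within the class with ROW and WOC, but not in the other 3 classes. Of H3K4me3 peaks in 4 groups of like size by fold enrichment, from lowest to highest, 7.80%, 5.84%, 12.7% and 23.6% carried HP1c. Within peaks that held ROW and WOC the shares were 28.7% (95% interval 23.5 to 34.7), 13.6% (10.8 to 17.0), 24% (20.9 to 27.4) and 37.0% (33.8 to 40.3), so that the least enriched group stood above the next. In the other 3 classes HP1c was most frequent in the least enriched group, and the intervals of the least and most enriched groups overlapped. From the least to the most enriched group the share was 2.15% (1.43 to 3.24) and 1.13% (0.439 to 2.86) with neither protein, 9.18% (4.91 to 16.5) and 6.79% (3.83 to 11.7) with ROW and no WOC, and 23.3% (11.8 to 40.9) and 8.82% (3.05 to 23.0) with WOC and no ROW. Overall 27.2% of H3K4me3 peaks with ROW and WOC had HP1c (25.4 to 29.1), against 5.36% of those with ROW alone (3.80 to 7.51), 8.51% with WOC alone (4.93 to 14.3) and 1.69% with neither (1.26 to 2.26).

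**Figure D4:**
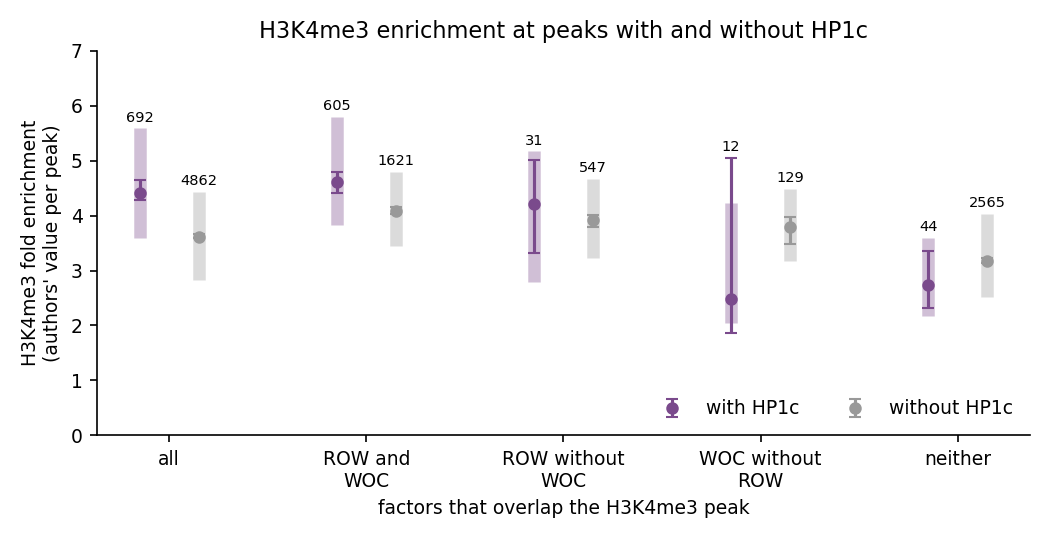
Dots are medians of the authors' fold enrichment of H3K4me3 peaks outside U and Uextra, with and without HP1c, by the other factors that overlap the peak; whiskers are order-statistic 95% intervals, pale bars span the quartiles and numbers above them count peaks. With ROW and WOC the medians are 4.62 with HP1c and 4.08 without it, and with neither protein 2.75 and 3.18.

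By chromosome arm, the marked share of HP1c peaks was highest on 4 and on both arms of chromosome 2; the intervals of 2L and 2R reached that of 3L, and that of 4 lay just above it. The marked share was 23.2% on the small, heterochromatin-rich chromosome 4 (95% interval 18.7 to 28.5), 21.4% on 2R (18.4 to 24.7), 20.8% on 2L (18 to 23.8), 16.0% on 3L (13.7 to 18.6) and 15.1% on 3R (12.8 to 17.8). It was 8.52% on the heterochromatin contigs (6.56 to 11.0) and 8.0% on X (5.34 to 11.8). The heterochromatin contigs held 15.7% of unmarked and 7.45% of marked HP1c peaks. Seen from the mark, 62 of 96 H3K4me3 peaks on chromosome 4 carried HP1c (64.6%, 54.6 to 73.4) and 43 of 63 on the heterochromatin contigs (68.3%, 56.0 to 78.4). On X 25 of 907 did (2.76%, 1.87 to 4.04), and on the main autosomal arms the share was 9.34% to 15.5%. The 2 lists were spread unlike over the arms. Chromosome 4 held 6.68% of HP1c peaks and 1.56% of H3K4me3 peaks, and the heterochromatin contigs 14.35% and 1.02%. X held 6.47% of HP1c peaks and 14.7% of H3K4me3 peaks. The part of these densities in the shares was not tested. ROW was more frequent at marked than at unmarked HP1c peaks on each of the 7 arms, by 25.9 to 45.4 points. WOC was too, by 18.4 to 35.7 points, with an interval above 0 on 6 of 7 arms.

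HP1c peaks on X overlapped the mark less often than those on the autosomal arms, while their shares with a summit nearby had overlapping intervals. Against the autosomal arms 2L, 2R, 3L and 3R, where 18.1% of 3082 HP1c peaks were marked, the odds ratio for X was 0.393 (Woolf 95% interval 0.252 to 0.614). A summit within 1 kb was nearly as frequent on X, at 30.9% of 275 peaks (25.7 to 36.6), as on the autosomal arms at 32.1% (30.5 to 33.8), and by that measure the odds ratio was 0.947 (0.725 to 1.24). Of the HP1c peaks with such a summit, 25.9% of 85 on X were marked (17.8 to 36.1) and 54.7% of 989 on the autosomal arms (51.6 to 57.8). The HP1c centre lay farther from the summit on X within that 1 kb, at a median of 491.5 bp (436.5 to 546) against 427 bp (415 to 436.5). Over all H3K4me3 peaks, those on X were narrower, with a median of 553 bp (539 to 567) against 651 bp (640 to 661). They were also lower in fold enrichment, with 3.26 (3.16 to 3.33) against 3.85 (3.80 to 3.90). H3K4me3 peaks within 1 kb of the HP1c peaks with a nearby summit differed less in width. Their medians were 616.5 bp on X (573 to 674) and 683 bp on the autosomal arms (663 to 704), with overlapping intervals. HP1c peaks were of like width on both, at 364 bp on X (336 to 384) and 362 bp (355 to 368) on the autosomal arms. The part of the mark's width and enrichment in the lower overlap on X was not tested. ROW was at 62.2% of HP1c peaks on X (56.3 to 67.7) and 57.6% on the autosomal arms (55.8 to 59.3), with overlapping intervals. WOC was higher on X, at 69.5% (63.8 to 74.6) against 61.4% (59.6 to 63.1). In the ROW list the odds ratio for overlap on X was 0.681 (0.579 to 0.800), in the WOC list 0.806 (0.678 to 0.957) and in the HP1b list 0.289 (0.134 to 0.625). The interval of HP1c lay below that of WOC and met those of ROW and HP1b.

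**Figure D5:**
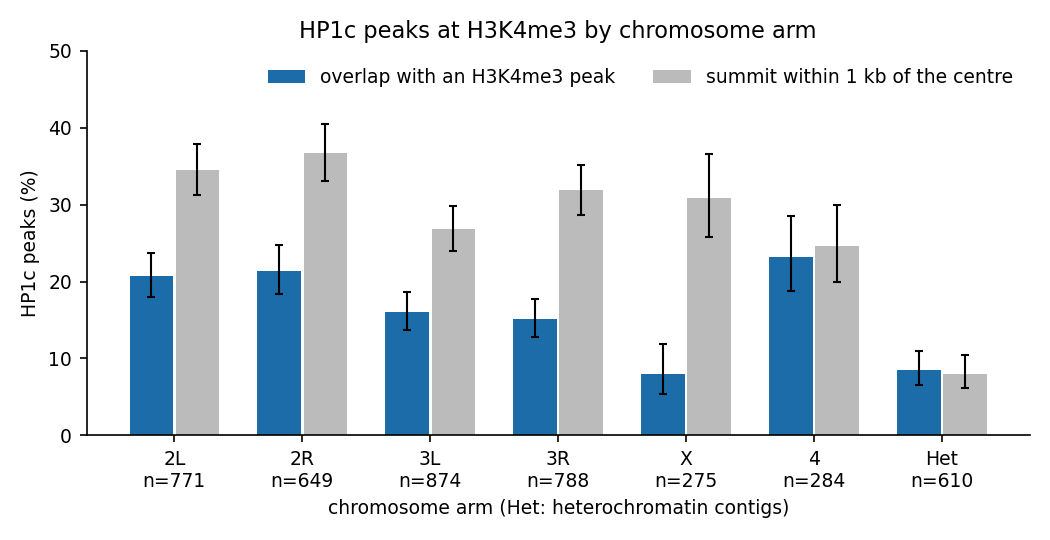
Blue bars give the percentage of HP1c peaks on each arm that overlap an H3K4me3 peak and grey bars the percentage with an H3K4me3 summit within 1 kb of the centre, with 95% Wilson intervals. On X the blue bar is 8.0% and the grey bar 30.9%, while on chromosome 4 they are 23.2% and 24.6%.

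Toward the centromeres the marked share was somewhat lower, with overlapping intervals. In the 2 Mb at the centromeric end of the 5 main arms 14.8% of 535 HP1c peaks were marked (95% interval 12 to 18), against 17.8% of 2822 elsewhere (16.4 to 19.2). The arms were not alike. On 3L the share was 7.91% (4.48 to 13.6) at this end against 17.6% (15 to 20.5) elsewhere, and on 2L 16.9% (11.8 to 23.6) against 21.7% (18.6 to 25.1). On 2R it was 21.5% against 21.4% and on 3R 14.9% against 15.1%, and on X 0 of 24 peaks at this end were marked (upper bound 13.8%) against 8.76% elsewhere. ROW was at 93.7% of the 79 marked peaks near centromeres (86.0 to 97.3) and at 90.8% of the 501 others (88.0 to 93.0).

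Single regions show the range (dm3, 1-based). The marked HP1c peak with the highest H3K4me3 fold enrichment, 10.86, was on chromosome 4 at 225284 to 226982 and overlapped 1339 bp of the mark at 224763 to 226622, with ROW, WOC and HP1b present. The next was on 3L at 10357152 to 10357902 (fold enrichment 9.36), also with all 3. The widest marked HP1c peak, 3901 bp on chromosome 4 at 1218711 to 1222611, held a whole H3K4me3 peak of middling fold enrichment (3.54) at 1219464 to 1220213. Its nearest summit, 90.5 bp from the HP1c centre at higher coordinates, lay past the end of that mark. The HP1c peak thus also met another H3K4me3 peak. The widest unmarked peak, 2612 bp, was on the same chromosome at 1238805 to 1241416, again with ROW, WOC and HP1b, and its nearest summit was 4247 bp away.

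In each smaller class the marked region with the highest fold enrichment was taken, so that its value is that of the extreme and not of the class. HP1c with ROW and no WOC lay inside the mark on 3L at 23330518 to 23330924 (fold enrichment 7.21). HP1c with WOC and no ROW overlapped 194 bp of the mark on chromosome 4 at 148109 to 148859 (8.44). HP1c with neither lay inside the mark on 3L at 23093629 to 23093931 (7.49), 686.5 bp from its summit. The 48 marked peaks with neither protein were spread over the arms, with 38 on the main autosomal arms, 6 on the heterochromatin contigs, 3 on chromosome 4 and 1 on X.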

How the data were processed

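Chromatin immunoprecipitation and sequencing lists from fly heads were used, 1 per antibody. Per the submitters' processing notes the build was dm3 and the tools included Bowtie2, SAMtools, MACS2 and deepTools; no version, role or threshold could be taken from these notes. The deposited HP1c, HP1b, ROW and WOC lists give chromosome, start and end only. In the deposited H3K4me3 list the authors also give a fold enrichment (ratio) per peak, a -log10 q-value of at least 3.02 and a summit, and its peak names point to MACS2 with IgG as control. These values are the authors' and served only to describe or filter peaks within that list.

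Overlap meant 1 bp or more. Distances ran from the HP1c centre to the H3K4me3 summit. Shares have Wilson intervals, differences of shares Newcombe intervals, odds ratios Woolf intervals and medians exact order-statistic intervals. Differences of medians have approximate intervals. These combine the distances from each median to its interval ends as the root of the summed squares. All are at 95% and for counting error only. Peaks of 1 list are neither replicates nor independent, so no p-values were computed. The functions were tested on simulated lists. Regions were named by rule: the 3 marked peaks of highest fold enrichment, the 3 widest marked and 3 widest unmarked peaks, and 1 of each kind per ROW and WOC class; examples are printed. The grouping and the measures were chosen with earlier results of these data known; the nearby, both-sided, X and centromeric comparisons were added after seeing the data. The gene table at hand is of another release, so genes and sequences were not used. Work was done in Python 3.11.15 with SciPy 1.17.1, pandas 2.3.3, NumPy 2.4.6 and matplotlib 3.10.9.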

Additional observations from a re-analysis of the deposited data

How the results depend on the processing

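No paired analysis was possible because the replicates of an antibody had been merged into 1 list before deposit, so that no replicate could be left out either. Of 71 alternatives for the 8 main results, 30 stayed within the 95% interval of the reported value. Another 36 moved outside that interval and 5 changed sign. Of those that changed sign, only the width difference within the class with ROW and WOC had an interval that excluded no difference. The causes were not tested unless given.

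The marked share moved with the definition, to 7.46% for an overlap of 0.5 of the shorter peak, 7.03% for the HP1c centre inside the mark, 29.2% for a gap of 500 bp, 10.3% for a 200 bp window, 12.6% with H3K4me3 above the median -log10 q (12.56) or fold (12.63), and 14.6% and 18.3% for HP1c peaks up to and above the median width. ROW stayed more frequent at marked peaks in all alternatives: 29.9 points (0.5 of the shorter peak), 29.5 (centre inside), 44.9 (gap), 46.6 and 31.2 (narrow and wide HP1c peaks), 33.3 (window), 32.0 (factor centre within 200 bp) and 4.42 against nearby unmarked peaks. WOC did too, in the same order 23.5, 22.3, 35.2, 42.1 and 20.4, 25.9, 26.6 and 5.54 points. HP1b turned to -2.67 points with the gap and -0.537 in narrow HP1c peaks, and was 16.3 against nearby unmarked peaks. The width difference of 27.5 bp turned to -3 bp with 0.5 of the shorter peak (-20.9 to 18.8) and -10 bp with the centre inside (-27.9 to 8.03). These intervals too included no difference. Within the class with ROW and WOC the width difference was -33.5 bp (-54.5 to -8.375).

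The X odds ratio was 0.896 with the gap and 0.947 with a summit within 1 kb. The median distance over all HP1c peaks, 6708 bp, became 13579 and 13274 bp with H3K4me3 above the median -log10 q or fold, where fewer summits remain, and 5235 bp on the main arms. The difference in fold enrichment, 0.95 over all contigs, was 0.641 with the gap, 0.616 and 0.590 above the median -log10 q or fold, which trims low values, 0.793 on the main arms and 0.799 without U and Uextra. In -log10 q it was 21.3. The lists hold no depth, which limits what a missing peak shows.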
